A study of Drosophila melanogaster with 6 samples.

Results

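Transcripts of the tricarboxylic acid (TCA) cycle enzymes were examined in the fat body of adult female Drosophila melanogaster. The set was given as 9 genes by symbol: kdn, mAcon1, Idh3a, Idh3b, Idh3g, SdhA, SdhB, Fum1 and Mdh2. The members were found by matching FlyBase identifiers to symbols, without use of any measured value, and 8 of the 9 had a row among the 15682 genes of the count table. Fum1, one of the fumarase genes, matched no row and was not analysed here. All 8 measured members passed the filter on low counts, which left 10398 genes for testing.

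RNA-seq compared dissected fat bodies of FB-Dp110DN and FB-GAL4 flies in 6 libraries, 3 a group. FB-Dp110DN flies carried the FB-GAL4 driver and a UAS transgene for dominant-negative Dp110 (Dp110 is the class I PI3K catalytic subunit), which bears a myc tag and cannot bind ATP properly. FB-GAL4 flies carried the driver alone. Both groups shared the white Dahomey background, were Wolbachia positive and were aged 7 to 10 days. The driver is constitutive, so adult effects and effects of earlier expression cannot be told apart. Per the series design each sample pooled 5 flies (the methods text differs on this number), and samples were prepared on different dates. The p-values below concern variation between these pooled samples. In fits blocked on replicate number, they rest on the variation left once differences between replicate numbers are removed. FB-Dp110DN and FB-GAL4 libraries of the same replicate number were compared as pairs, because the study processed mutant and control together.

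Total counts ranged from 22607341 to 36870161 per library. Pi3K92E, the gene encoding Dp110, checked the labels, since its row also collects reads of the transgene. Its level was 892, 1246 and 343 CPM (reads of a gene scaled to a common library size, with TMM factors) in FB-Dp110DN replicates 1, 2 and 3, against 81.0, 89.9 and 94.1 CPM in the FB-GAL4 libraries. Fat body markers were present, with 13 genes holding 2.95% to 7.46% of the counts of a library and none of them at 0. The replicate 3 libraries of both groups stood apart. A list of 21 muscle structure genes held 4.34% of the counts in FB-Dp110DN replicate 3 and 3.01% in FB-GAL4 replicate 3, but 0.948% to 1.30% in the other libraries. For this reason the results below are also given without replicate 3.

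The TCA cycle runs in the mitochondrial matrix and oxidises acetyl-CoA to carbon dioxide, passing electrons to the respiratory chain as NADH and, at succinate dehydrogenase, through a bound flavin. Its intermediates also leave the cycle, citrate for fatty acid synthesis and oxaloacetate for aspartate. The insect fat body stores lipid and glycogen and makes many of the proteins of the haemolymph, combining roles of vertebrate liver and adipose tissue, and PI3K acts in it downstream of the insulin receptor.

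All 8 members had a higher level in FB-Dp110DN than in FB-GAL4 in each of the 3 pairs, a pattern that 28.3% of all tested genes shared. The fitted fold ranged from 1.40 for Mdh2 to 1.69 for mAcon1, and the median log2 fold change of the 8 was 0.61, against 0.04 over all tested genes. No member passed the main test, the quasi-likelihood test of edgeR blocked on replicate number, at an adjusted p under 0.05. Their adjusted p-values were 0.157 for 7 members and 0.167 for Mdh2. Pi3K92E, whose row includes the transgene, was not called by this test either. Its log2 fold change was 3.05 (SE 0.405), at the same adjusted p of 0.157.

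Citrate synthase, encoded by kdn (FBgn0261955, chromosome arm X), joins acetyl-CoA to oxaloacetate and opens the cycle. Its level was 531, 546 and 2498 CPM in FB-Dp110DN replicates 1, 2 and 3, and 433, 367 and 1221 CPM in FB-GAL4 replicates 1, 2 and 3. Both replicate 3 libraries were far above the rest, and the groups overlapped, since FB-GAL4 replicate 3 exceeded FB-Dp110DN replicates 1 and 2. The means were 1191 ± 1131 CPM in FB-Dp110DN and 674 ± 475 CPM in FB-GAL4 (SD, n = 3 each). The within-pair log2 differences were 0.29, 0.57 and 1.03, and the log2 fold change was 0.63 with an SE of 0.19.

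Mitochondrial aconitase, encoded by mAcon1 (FBgn0010100, arm 2L), turns citrate into isocitrate through an iron-sulphur cluster. The FB-Dp110DN libraries held 1920, 2699 and 3086 CPM of mAcon1, and the FB-GAL4 libraries 1465, 1342 and 1688 CPM. Every FB-Dp110DN library was above every FB-GAL4 library. Group means were 2568 ± 594 and 1498 ± 175 CPM (SD, n = 3 each), the pair differences were 0.39, 1.01 and 0.87 on the log2 scale, and the log2 fold change was 0.76 (SE 0.19).

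The NAD-dependent isocitrate dehydrogenase makes oxoglutarate and is built from a catalytic alpha subunit, Idh3a (FBgn0027291, arm X), with the subunits Idh3b (FBgn0038922, arm 3R) and Idh3g (FBgn0039358, arm 3R). Idh3a was at 437, 498 and 1442 CPM in FB-Dp110DN and at 366, 319 and 790 CPM in FB-GAL4. Idh3b was at 245, 322 and 586 CPM in FB-Dp110DN and at 209, 190 and 338 CPM in FB-GAL4. Idh3g was at 282, 353 and 624 CPM in FB-Dp110DN and at 250.0, 219 and 366 CPM in FB-GAL4. In all 3 genes replicate 3 was the highest library of its group, and FB-GAL4 replicate 3 lay above FB-Dp110DN replicates 1 and 2, so the groups overlapped. The log2 fold changes of the subunits were close to each other, at 0.59 (SE 0.17) for Idh3a, 0.60 (SE 0.17) for Idh3b and 0.54 (SE 0.17) for Idh3g.

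Succinate dehydrogenase belongs to the cycle and is also complex II of the respiratory chain. SdhA (FBgn0261439, arm 2R) encodes its flavoprotein and SdhB (FBgn0014028, arm 2R) its iron-sulphur subunit. SdhA was at 568, 805 and 847 CPM in FB-Dp110DN against 433, 420 and 479 CPM in FB-GAL4. SdhB was at 529.9, 755 and 634 CPM in FB-Dp110DN against 422, 349 and 362 CPM in FB-GAL4. Neither gene overlapped between the groups, and neither stood out in replicate 3 as kdn did. For SdhA the means were 740 ± 150 and 444 ± 30.7 CPM, with a log2 fold change of 0.72 (SE 0.17). For SdhB they were 640 ± 113 and 378 ± 38.7 CPM (SD, n = 3 each), with a log2 fold change of 0.75 (SE 0.19).

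Mitochondrial malate dehydrogenase, encoded by Mdh2 (FBgn0262559, arm 3R), restores oxaloacetate for the next turn. Its level was 425, 474 and 1059 CPM in FB-Dp110DN and 371, 348 and 603 CPM in FB-GAL4. As for kdn, FB-GAL4 replicate 3 lay above FB-Dp110DN replicates 1 and 2. The pair differences were 0.20, 0.44 and 0.81 and the log2 fold change was 0.48 (SE 0.17), the lowest of the 8. The log2 fold changes of the highest and the lowest member differed by 0.27, while the SE of a single member was between 0.17 and 0.19.

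**Figure D1:**
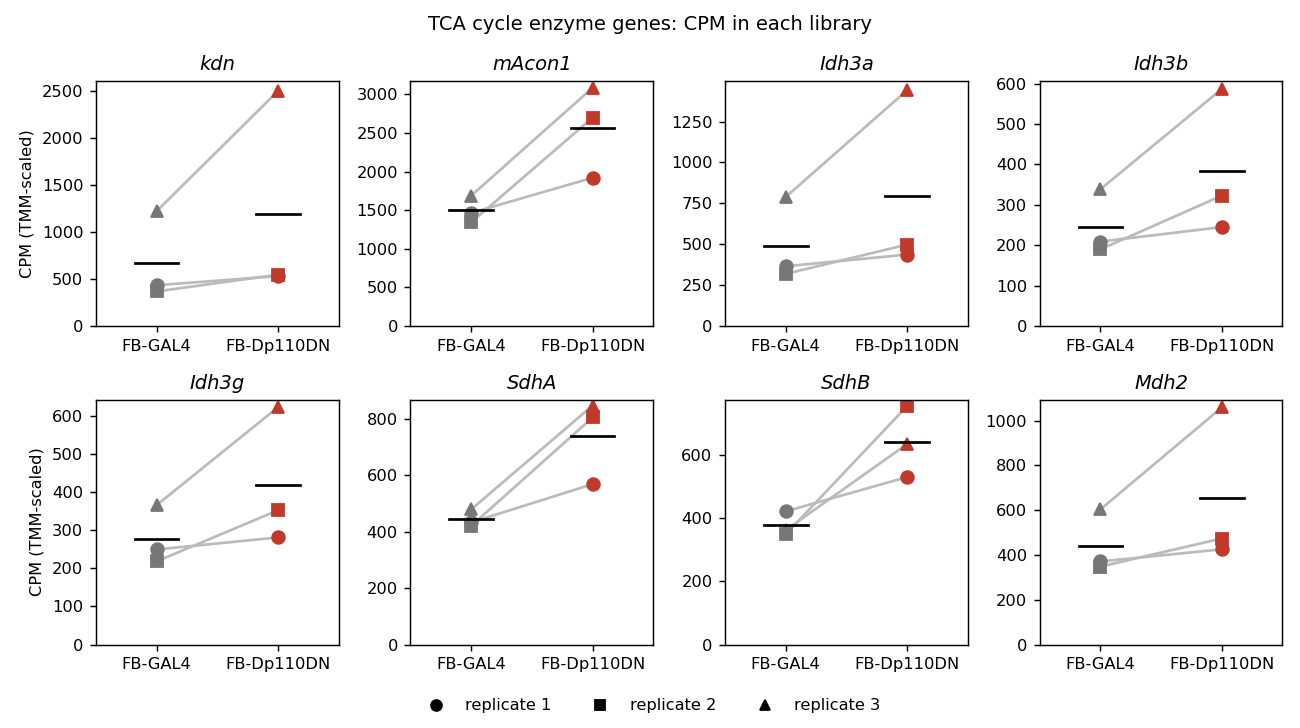
CPM of each of the 8 measured members (vertical axis, linear from 0) in the FB-GAL4 and FB-Dp110DN libraries, with grey lines joining libraries of the same replicate number and black bars at the group means of 3 libraries. In every panel all 3 lines go up from FB-GAL4 to FB-Dp110DN, and in kdn, Idh3a, Idh3b, Idh3g and Mdh2 the FB-GAL4 triangle (replicate 3) lies above the FB-Dp110DN circle and square.

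How many members passed depended on the test. The main edgeR fit called 0 of 8, and it called 3 of 10398 genes in all (0.0289%). The unadjusted edgeR p was under 0.05 for 8 of 8 members, from 0.00503 for SdhA to 0.0294 for Mdh2, beside 13.1% of all tested genes that were higher at this level. By rank of p among all tested genes the members stood between place 257 (SdhA) and place 1831 (Mdh2). The adjusted p of 0.157 is one that 1284 genes share.

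With the same block, the Wald test of DESeq2 called 8 of 8 members higher in FB-Dp110DN, at adjusted p-values from 0.00256 for mAcon1 to 0.0482 for Mdh2. Of the 9084 genes given an adjusted p by this test, 6.80% were called higher. The groups did not overlap for 3 of 8 members, mAcon1, SdhA and SdhB, against 11.6% of all tested genes. In the edgeR fit without the block, the same 3 members were the ones with an unadjusted p under 0.05, with 0.0187 for mAcon1, 0.00898 for SdhA and 0.00574 for SdhB. Over all tested genes 8.42% were higher at that level in that fit.

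The measured size moved with the library scaling. With libraries scaled by their total counts only, the log2 fold change of all tested genes shifted by a median of -0.216, the members' median was 0.40, and values ran from 0.27 for Mdh2 to 0.54 for mAcon1. Relative to the median of all tested genes, the members' median was 0.57 under either scaling. This follows from the method, since a change of scaling shifts all genes by nearly the same amount. All 8 remained higher in all pairs under total counts, a scaling for which the share of all tested genes with this pattern was not computed. Only 6 of 8 had an unadjusted edgeR p under 0.05, beside 3.78% of all tested genes that were higher. The split of all genes at that level moved from 1366 higher and 1300 lower to 393 higher and 2610 lower.

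**Figure D2:**
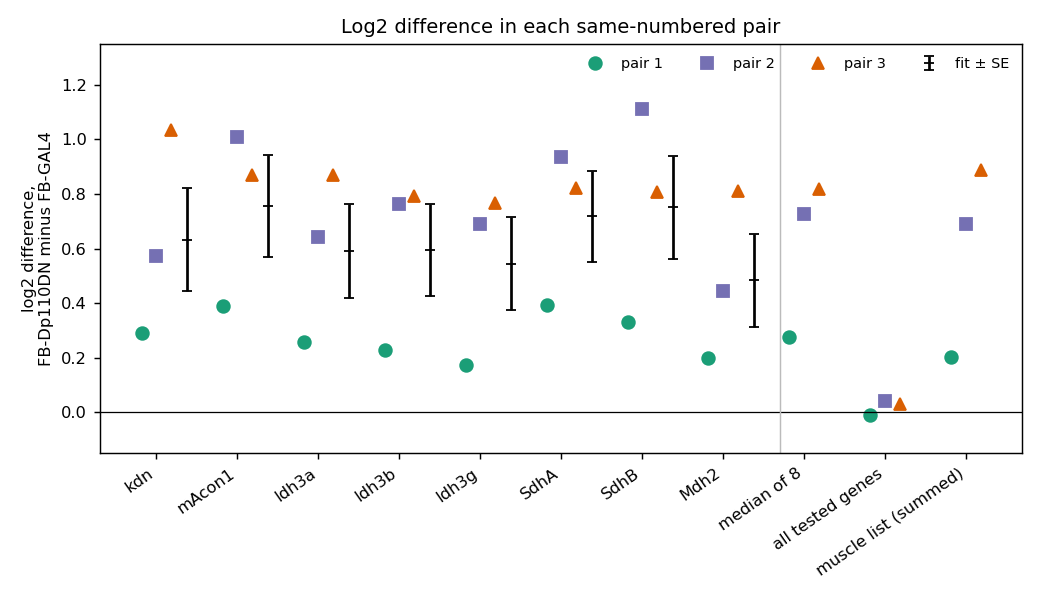
Log2 difference in CPM, FB-Dp110DN minus FB-GAL4, in same-numbered pairs 1, 2 and 3 (coloured points) and the fitted log2 fold change ± SE (black bars) for each member, beside the median of the 8, the median of all tested genes and the summed muscle list. Every member's points lie above 0, pair 1 is the lowest for each member, and the medians of all tested genes lie between -0.01 and 0.04.

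Pair by pair, the median log2 difference of the 8 members was 0.28, 0.73 and 0.82 in pairs 1, 2 and 3 (SD 0.29, n = 3). Over all tested genes these medians were -0.01, 0.04 and 0.03. Pair 1 gave the smallest difference for each of the 8 members. The pair with the largest difference was pair 3 for kdn, Idh3a, Idh3b, Idh3g and Mdh2, and pair 2 for mAcon1, SdhA and SdhB. Together the members held 0.487%, 0.600% and 0.939% of all counts in the FB-Dp110DN libraries and 0.403%, 0.388% and 0.656% in the FB-GAL4 libraries.

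The members differed among themselves in how far replicate 3 stood from replicates 1 and 2 of its own group. On the log2 scale this distance was 2.21 in FB-Dp110DN and 1.61 in FB-GAL4 for kdn, and 1.63 and 1.21 for Idh3a. Mdh2 followed with 1.24 and 0.75, Idh3b with 1.06 and 0.77 and Idh3g with 0.98 and 0.65. It was small for mAcon1 (0.44 and 0.27) and SdhA (0.33 and 0.17), and near 0 for SdhB (0.00 and -0.08). Of the variation of kdn over the 6 libraries, the replicate number took 86.9% and the group 10.6%. For SdhB the order was the opposite, with 1.59% for the replicate number and 83.1% for the group. Over all tested genes the medians of these shares were 31.3% and 33.8%.

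The summed muscle list showed a distance of the same direction, 1.93 in FB-Dp110DN and 1.48 in FB-GAL4, and its pair differences were 0.20, 0.69 and 0.89. Act88F, the actin of the indirect flight muscle, was at 4620 CPM in FB-Dp110DN replicate 3 and 2500 CPM in FB-GAL4 replicate 3, against 44.9 to 202 CPM elsewhere. Of the 21 muscle genes 20 had a positive fitted log2 fold change, the exception being Act88F at -0.01, and none was at 0 in all libraries. The muscle sum does not stand for each of its genes. Zasp66 was at 795, 1080 and 879 CPM in FB-Dp110DN and at 700, 551 and 616 CPM in FB-GAL4, with replicate 3 highest in neither group. The 37 genes of the mitochondrial genome, 17 of them at 0 throughout, were also higher in replicate 3, with summed distances of 1.17 and 0.64 and pair differences of 0.10, 0.52 and 0.84. The summed fat body list went the other way in replicate 3, by -0.37 and -1.31, while its pair differences were 0.05, 0.46 and 1.19 (12 of 13 fitted genes higher). The sum does not stand for every gene on the list, since Lsp2 and Fbp1 were highest in replicate 3 of both groups. Markers of other cell types also moved with the group. The germline list was lower in FB-Dp110DN in every pair, at -0.38, -1.30 and -0.18, with 0 of 12 fitted genes higher. The neuron list was higher, at 0.19, 0.81 and 0.47 (7 of 7 genes), as was the hemocyte list, at 0.31, 0.49 and 0.38 (6 of 6 genes). The gut list gave 0.26, 0.87 and -0.10 within pairs (7 of 14 fitted genes higher) and lay lower in replicate 3, by -2.18 in FB-Dp110DN and -1.52 in FB-GAL4, and the eggshell list gave -0.12, -0.30 and 0.21 (5 of 12 genes higher). None of the genes on these lists was at 0 in all libraries. The part of all these lists in the members' differences was not tested. From replicate 2 to replicate 3 of FB-Dp110DN the muscle list went from 1.30% to 4.34% of counts. Over the same step kdn went from 546 to 2498 CPM, Idh3a from 498 to 1442 CPM and SdhB from 755 to 634 CPM. The direction for SdhB depended on the step taken, since it rose from 529.9 to 634 CPM between replicates 1 and 3 of FB-Dp110DN. In FB-GAL4 its replicate 3 level of 362 CPM lay between 349 CPM in replicate 2 and 422 CPM in replicate 1. In bulk tissue, a different share of cells of one type and a different amount of RNA per cell cannot be told apart.

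**Figure D3:**
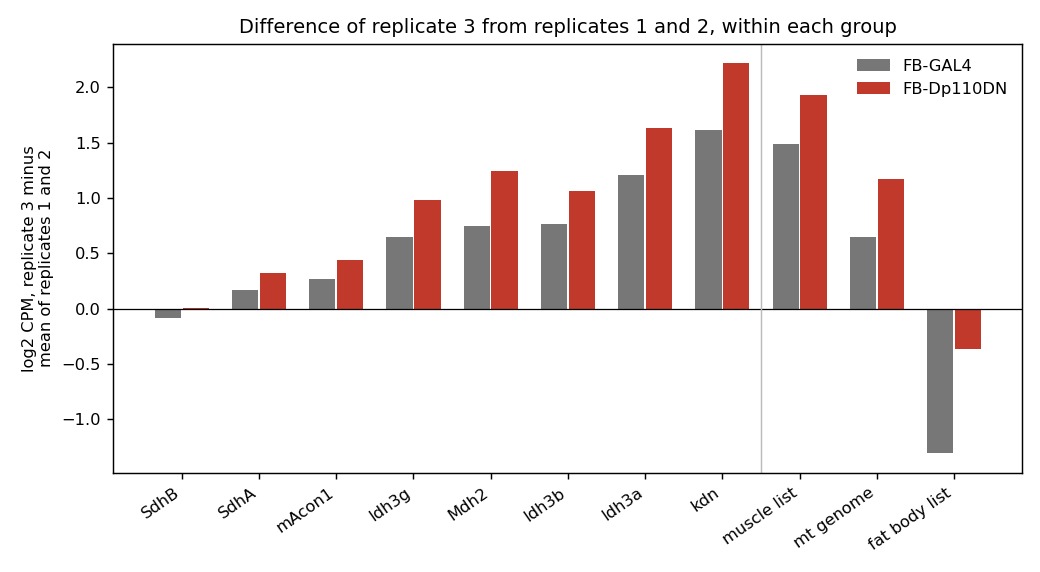
Log2 CPM of replicate 3 minus the mean of replicates 1 and 2 within FB-GAL4 (grey bars) and within FB-Dp110DN (red bars), for each member and for the summed muscle, mitochondrial genome and fat body lists. The members run from SdhB near 0 to kdn at 1.61 and 2.21, and the muscle list lies at 1.48 and 1.93.

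Without replicate 3, all 8 members stayed on the positive side, with log2 fold changes from 0.33 for Mdh2 to 0.73 for SdhB and a median of 0.48. The edgeR test then called 0 of 8, at adjusted p-values from 0.0599 for SdhB to 0.426 for Mdh2. Of 10356 tested genes, 3.74% were called higher, and 875 genes were called in either direction. The prior degrees of freedom, which set how far each gene's variance is drawn to the trend over genes, were infinite in this fit. They were 4.05 with all libraries, so the calls of these fits are not on one scale. Without replicate 3 the unadjusted p was under 0.05 for 4 of 8 members, beside 12.9% of all tested genes that were higher at that level. The succinate dehydrogenase genes and mAcon1 changed least, at 0.67 for SdhA, 0.73 for SdhB and 0.71 for mAcon1, against 0.44 for kdn. This order holds for the removal of replicate 3 only. Without replicate 2 the values were 0.61 for SdhA, 0.57 for SdhB and 0.63 for mAcon1, against 0.66 for kdn.

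Levels were next compared between members as CPM per kilobase of exon. In FB-GAL4 the mean level was 483 for mAcon1, 330 for Mdh2, 310 for SdhB, 238 for kdn, 234 for Idh3a, 161 for SdhA, 119 for Idh3b and 117 for Idh3g. In FB-Dp110DN mAcon1 was again first, at 828, and Idh3b and Idh3g were again last, at 187 and 177. The order of the levels in between was not stable over libraries, since kdn passed Mdh2 in replicate 3 of FB-Dp110DN and not in the others. Per length, Mdh2 stood at 1.70, 1.84 and 0.901 times kdn in FB-Dp110DN and at 1.82, 2.01 and 1.05 times kdn in FB-GAL4.

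Ratios of subunits compared parts of an enzyme complex within each library. Per length, Idh3b over Idh3g was 1.00, 1.05 and 1.08 in FB-Dp110DN and 0.964, 1.00 and 1.06 in FB-GAL4. The log2 ratio differed between the groups by 0.05 ± 0.03 within pairs (SD, n = 3), above its spread but small. Idh3a exceeded Idh3b in every library, by 1.75, 1.51 and 2.41 times in FB-Dp110DN and by 1.71, 1.65 and 2.28 times in FB-GAL4, with a within-pair log2 difference of -0.01 ± 0.10. Replicate 3 had the highest Idh3a share in both groups. SdhA over SdhB was 0.475, 0.472 and 0.592 in FB-Dp110DN and 0.455, 0.534 and 0.586 in FB-GAL4, with a within-pair log2 difference of -0.03 ± 0.13. For Idh3a over Idh3b and SdhA over SdhB the difference between groups was smaller than its spread over the pairs. Across enzymes, kdn over mAcon1 was 0.221 to 0.324 in the replicate 1 and 2 libraries, but 0.885 and 0.791 in replicate 3 of FB-Dp110DN and FB-GAL4.

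The remaining subunits of succinate dehydrogenase, the membrane anchors SdhC (FBgn0037873, arm 3R) and SdhD (FBgn0039112, arm 3R), were not part of the set. SdhC was at 195, 251 and 410 CPM in FB-Dp110DN and at 175, 136 and 214 CPM in FB-GAL4, with a log2 fold change of 0.66 (SE 0.20). SdhD was at 146, 180 and 270 CPM in FB-Dp110DN and at 117, 101 and 152 CPM in FB-GAL4, also with 0.66 (SE 0.16). The anchors' adjusted p-values were 0.157 each by the edgeR test and 0.0213 and 0.00968 by DESeq2. All 4 subunits of the complex thus had log2 fold changes between 0.66 and 0.75, none of them past the main test.

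The enzymes between isocitrate dehydrogenase and succinate dehydrogenase gave a mixed picture. Ogdh, the E1 subunit of oxoglutarate dehydrogenase, was at 1560, 2229 and 1942 CPM in FB-Dp110DN against 1194, 1135 and 1085 CPM in FB-GAL4, without overlap. Its log2 fold change was 0.73 (SE 0.18), and replicate 3 differed from replicates 1 and 2 by only 0.06 and -0.10. The E2 subunit CG5214 and the E3 subunit CG7430 had 0.54 (SE 0.15) and 0.51 (SE 0.21). Succinyl-CoA ligase, which makes ATP or GTP from succinyl-CoA, gave 0.34 (SE 0.16) for Scsalpha1, 0.39 (SE 0.16) for ScsbetaA and -0.05 (SE 0.14) for ScsbetaG. By DESeq2 the adjusted p was 0.00306 for Ogdh and 0.0184 for CG5214, and between 0.0764 and 0.946 for the other 4.

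Of 23 other listed genes of the cycle, 11 passed the filter on low counts, and among the remaining 12 the highest count in any library was 8. Over the 11 the median log2 fold change was 0.46, 5 had an unadjusted edgeR p under 0.05 in the higher direction, 0 in the lower, and 0 were called after adjustment, while DESeq2 called 4. Over all genes tested by each, 13.1% were higher at this unadjusted edgeR level and DESeq2 called 6.80% higher. Of 4 matched genes of pyruvate entry, 1 was higher at the unadjusted level, and of 7 tested genes feeding or leaving the cycle, 3 were. By smallest p the leading ones were PCB, pyruvate carboxylase, which refills oxaloacetate, with 0.82 (SE 0.15), and Pdhb, the E1 beta subunit of pyruvate dehydrogenase, with 0.58 (SE 0.20). Men, a malic enzyme, followed with 0.45 (SE 0.16) and Got1, an aspartate aminotransferase, with 0.40 (SE 0.16). PCB was at 799, 1069 and 716 CPM in FB-Dp110DN and at 505, 550.1 and 402 CPM in FB-GAL4, so its replicate 3 libraries were the lowest of each group. The adjusted edgeR p-values of these 4 were 0.157, 0.165, 0.170 and 0.194. Of the isozymes that work outside the NAD-linked mitochondrial steps, cytosolic Mdh1 had 0.46 (SE 0.20) and the NADP-dependent Idh 0.15 (SE 0.16).

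**Figure D4:**
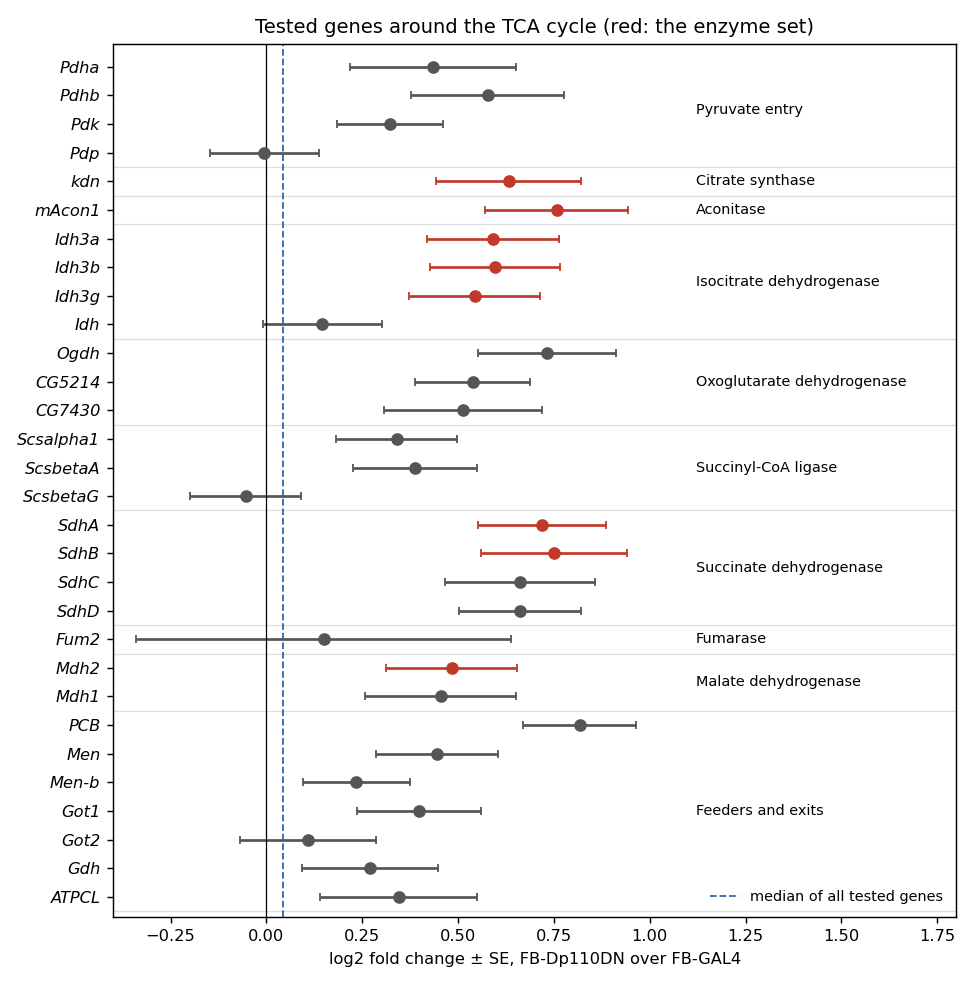
Log2 fold change ± SE (FB-Dp110DN over FB-GAL4, edgeR fit with 3 libraries a group) of the tested genes around the cycle, ordered by step, with the 8 members in red, other listed genes in grey and the median of all tested genes (0.04) as a dashed line. The members lie between 0.48 and 0.76, PCB is the highest gene drawn at 0.82 and ScsbetaG the lowest at -0.05. For fumarase only Fum2 is drawn, at 0.28 to 0.50 CPM in the libraries, since Fum1 matched no row.

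Neighbouring pathways are given for scale only. The 19 tested complex I subunits had a median log2 fold change of 0.50, from 0.32 to 0.64. Of them 16 had an unadjusted edgeR p under 0.05, all in the higher direction, beside 13.1% of all tested genes. The 10 tested glycolysis genes had a median of 0.43, from 0.13 to 0.75, with 3 of 10 at that level. In pairs 1, 2 and 3 the median was 0.19, 0.69 and 0.70 for complex I and 0.06, 0.31 and 0.95 for glycolysis, beside 0.28, 0.73 and 0.82 for the TCA members. No gene of either list was called by edgeR after adjustment. DESeq2 called 12 complex I subunits and 2 glycolysis genes higher, beside 6.80% of all genes it gave an adjusted p. Whether the TCA members differed from these lists was not tested.

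Exons of 4 members overlapped genes on the opposite strand, and no source used here says whether reads were counted by strand, so their reads cannot be fully separated. In exonic length the overlap was 10.6% of SdhB (with CG15237), 6.65% of Idh3g (with RpL27, a ribosomal protein gene), 1.38% of SdhA (with CG11257) and 0.387% of mAcon1 (with CG43345 and with CG43346).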

How the data were processed

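The deposited table held raw read counts per gene for 6 libraries, made by the authors with TopHat2 2.0.11 on BDGP5 and HTSeq (version and strand setting not given in the sources used here). Its further columns, the authors' DESeq2 mean, log2 fold change, standard error, statistic and p-values, were not used. All 6 count columns matched a sample by title, since FB-GAL4 replicates 2 and 3 share a description. Symbols matched 15002 of 15682 identifiers, and the other 680 held 5.91% to 7.11% of counts. BDGP6 annotation gave symbols, arms, exonic lengths and overlaps only. No sequence was printed and the planned promoter motif search was not run.

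Counts were tested with edgeR 4.0.16 in R 4.3.3 (filterByExpr, TMM, quasi-likelihood, group plus replicate number as block, Benjamini-Hochberg adjusted p under 0.05). SEs were obtained by dividing the absolute log2 fold change by the root of the F statistic. CPM used the TMM-scaled library sizes. Pair differences used log2 CPM with a prior count of 2. The pairing comes from the titles and the study's processing days. Deviations from group means correlated at 0.416, 0.189 and 0.590 in same-numbered libraries, but also at 0.384 and 0.221 between replicates 1 and 2 of different groups, so these values set replicate 3 apart and do not tell pair 1 from pair 2. DESeq2 1.42.0 (Wald, same block), other scalings and filters, removal of the block, of each replicate, and of mitochondrial genome or muscle genes were alternatives. Scaling by total counts only was added after seeing the data. The fits were also run on simulated data, with the outcome not reported here. Members and lists were chosen with earlier results of these data known. Values were given for all members, the transgene's gene, the other subunits of members' complexes, oxoglutarate dehydrogenase and succinyl-CoA ligase, and the 4 other listed genes of smallest p. Act88F, Zasp66, Idh and Mdh1 were named after their values were seen.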

Additional observations from a re-analysis of the deposited data

How the results depend on the processing

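With 3 libraries a group, all 8 members kept a positive log2 fold change under each of 11 alternatives. Of 88 combinations of gene and alternative, 80 stayed on the same side of the threshold, and the other 8 passed it under DESeq2 alone. DESeq2 called 8 of 8 members where edgeR called 0 (8 at an unadjusted p under 0.05). Over all genes tested by each, DESeq2 called 6.80% higher, and 13.1% were higher at that unadjusted edgeR level. The cause of the difference between DESeq2 and edgeR was not tested. The members' median was 0.61, and ran from 0.48 to 0.82 when one replicate was left out (0.82 without replicate 1, 0.57 without replicate 2, 0.48 without replicate 3). It was 0.71 without the replicate block, which changed no member's call. Without replicate 1, 8 of 8 members had an unadjusted edgeR p under 0.05, beside 12.0% of all tested genes that were higher. Without replicate 2 these were 2 of 8, beside 6.56%, and without replicate 3 they were 4 of 8, beside 12.9%. Over all genes, edgeR called 3, but 0 without the replicate block (2468 at an unadjusted p under 0.05), 9 with no filter and 970 with DESeq2. Leaving out 1 replicate gave 0 to 875 calls, with 0 without replicate 1 or replicate 2 and 875 without replicate 3. The fit without replicate 3 had infinite prior degrees of freedom, so its number of calls is not on one scale with the main fit. Other scalings, a minimum of 10 counts, and removal of mitochondrial genome or muscle genes gave 2 to 4. The lowest count of a member in a library was 4675 (Idh3b, FB-GAL4 replicate 2), and an effect of depth was not tested. Their SEs of 0.17 to 0.19 rest on 3 pairs.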

Other observations

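The genes outside the listed pathways whose levels over the 6 libraries were most like the mean profile of the 8 members were CG2121, UQCR-C2, ReepA, pio and slo. Their Pearson r with that profile was 0.9993 for CG2121, 0.9989 for UQCR-C2, 0.9986 for ReepA, 0.9978 for pio and 0.9975 for slo, given as a measure of likeness only. In each of these genes replicate 3 was the highest library of its own group, and FB-Dp110DN was higher in every pair. Of 6970 genes with a mean over 10 CPM, 178 had an r over 0.95. UQCR-C2, a core subunit of respiratory complex III, was at 493, 646 and 1120 CPM in FB-Dp110DN and at 407, 379 and 619 CPM in FB-GAL4.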
